A study of Mus musculus with 8 samples.

Results

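Germline genes that promoter methylation usually keeps silent in somatic tissue were followed in the vomeronasal organ of mice lacking Tex15. The organ is the paired chemosensory tube in the nasal septum that detects pheromones. The rule named 10 gene symbols, and 5 of the 10 had a row among the 27532 genes of the deposited table: Dazl, Ddx4, Sycp3, Slc25a31 and Tdrkh. Mael, Asz1, Hormad1, Stk31 and Tex101 had no row under their symbol or their GENCODE M21 identifier, and no level is given for them. No reading of their expression follows from this, because the filter behind the list is not given in the sources used here.

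Bulk RNA sequencing of poly(A) RNA was available for 4 Tex15 heterozygous (Tex15Het) and 4 Tex15 knockout (Tex15KO) adult mice, 1 library per animal. Sex was unevenly spread: the males were heterozygous replicate 1 and knockout replicates 2, 3 and 4, and the other 4 animals were female. Ages ran from 11.4 to 14.6 weeks. By the animal numbers in the labels, heterozygous replicates 1 and 2 belong to an earlier number series and the other 6 animals to a later one, so the earlier series held no knockout. In the later series the heterozygotes, replicates 3 and 4, were female and all males were knockouts. Genotype and sex are therefore largely confounded there, and fits and tests within that series carried no sex term. The strings that end the library titles also set heterozygous replicates 1 and 2 apart, each with a string of its own. Knockout replicate 4 has its own string too, and the remaining libraries share 1. What the strings stand for is not stated. The labels name no strain or allele design, and the controls were heterozygous, with no wild-type animal analysed here. Tex15 encodes a protein of the PIWI-interacting RNA (piRNA) pathway that directs DNA methylation to transposons in fetal male germ cells.

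Methylation of CpG dinucleotides at a promoter is a stable form of repression. Most CpG-rich promoters escape it, and a group of germline genes is the known exception: their promoters are methylated in the early embryo by DNMT3B and remain so in the body, maintained by DNMT1 and UHRF1. Before methylation they are held down by a Polycomb complex with E2F6, MGA and MAX, which bind E2F-type and E-box motifs, and loss of these marks is known to release such genes outside the germline. Methylation was not measured here, so transcript level is the only readout.

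Values are TPM as deposited, a level per transcript length scaled to a common sum. Recovered depth was 17884091 to 26415660 reads per library, at which 3 reads on 2 kb of exon equal 0.0916 to 0.163 TPM. Tex15 itself, the check of the labels, stood at 2.27 to 2.81 TPM in heterozygous and 0.870 to 1.23 TPM in knockout libraries, without overlap (limma adjusted p = 0.794, limma-voom adjusted p = 0.0194). Of the vomeronasal neuron markers, Gnai2 was at 114 to 302 TPM and Gnao1 at 11.5 to 30.7 TPM over all libraries, whereas Trpc2 had no row under that symbol. Omp, which marks mature neurons, was at 66.7 TPM in heterozygous replicate 1 and at 571 to 943 TPM in the other 7 libraries. Its fold change, 1.27 log2 units over all libraries (limma unadjusted p = 0.0118, adjusted 0.702), passed the threshold in 3 alternatives. These were the replicate block with the sex term (1.275, limma adjusted p = 0.00976), the fit without heterozygous replicate 4 (1.37, adjusted p = 0.0131) and that without knockout replicate 1 (2.95, adjusted p = 8.28e-05). It did not keep its direction in the later number series. There the difference of mean log2(TPM + 0.5), taken without a sex term and not relative to the median gene, was −0.40 (exact permutation p = 0.0667). Of the 8 libraries, heterozygous replicate 1 and knockout replicate 1 carry the most weight in a comparison adjusted for sex, since each is the lone animal of its sex in its group.

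The promoters of the set were CpG-rich by the RefSeq sequences of build GRCm38.p6, in windows of 300 bases from 250 bases before to 50 bases after a start site. All 10 genes matched, with 12 windows. These windows held 15 to 38 CpG dinucleotides with a median of 24, against a median of 7 over all 32851 windows. Other lists were CpG-rich as well: the median was 29 for the regulators of methylation and silencing, 17 for other meiosis genes and 14 for piRNA pathway partners. The observed number of CpG relative to that predicted from base composition had a median of 0.782 in the set, 0.803 in those regulators and 0.384 over all windows. Among the listed genes the count was 38 for Ddx4, 28 for Dazl, 25 for Tdrkh, 22 for Slc25a31 and 15 for Sycp3. Ddx4 lay above 95.05% of all windows and Sycp3 above 65.4%.

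**Figure D1:**
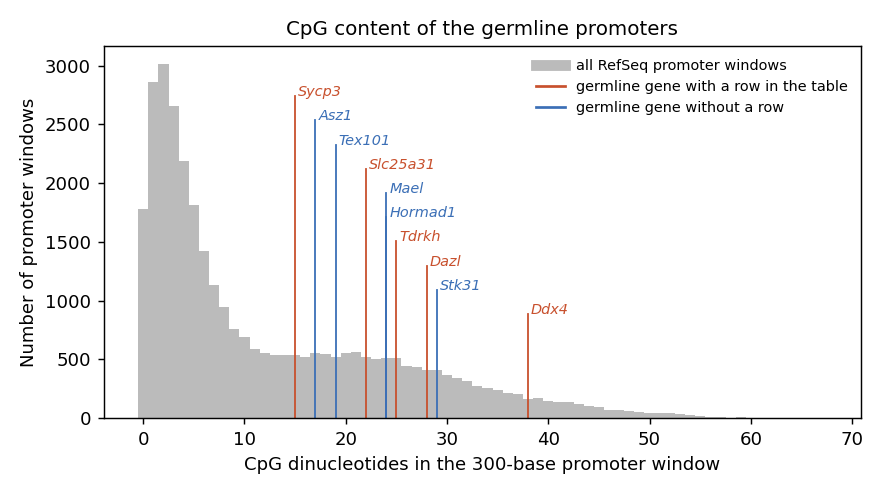
The histogram gives the number of RefSeq promoter windows (vertical axis) by the count of CpG dinucleotides in the 300-base window (horizontal axis), with a vertical line for each of the 10 germline genes (line heights only separate the names; 1 window is drawn for a gene with several). All 10 lines lie at 15 CpG or more, to the right of the overall median of 7.

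The E-box CACGTG, which reads the same on both strands, was found in a window of 6 of the 10 genes, compared with 8.09% of all 27025 genes with a window. The E2F-type motif TCCCGC, searched on both strands as TCCCGC or GCGGGA, was found in 5 of the 10, compared with 22.1% of all genes. The motifs can share 1 base at most. Mael, Sycp3, Ddx4, Slc25a31 and Hormad1 held both, which is 5 of 10 against 2.32% of all genes, and Stk31 held the E-box alone. Dazl, Tdrkh, Asz1 and Tex101 held neither of these letters in this window. Related genes also held these motifs more often than all genes did in most cases. Of the meiosis genes described further on, 33.3% held the E-box, 50% the E2F-type motif and 16.7% both. The piRNA partners held the E-box in 46.2%, the E2F-type motif in 15.4% and both in 0%, and the regulators of methylation and silencing 14.3%, 52.4% and 4.76%.

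The promoters of 3 genes are printed because they span what the expression values show. Ddx4 is the most CpG-dense and, relative to its mean, varied most between libraries. Dazl came closest to a separation of the groups, and Tdrkh had by far the highest level of the 5. Each sequence is the 250 bases before the RefSeq start site on the gene's own strand, 5′ to 3′, with every CpG in capitals.
Ddx4: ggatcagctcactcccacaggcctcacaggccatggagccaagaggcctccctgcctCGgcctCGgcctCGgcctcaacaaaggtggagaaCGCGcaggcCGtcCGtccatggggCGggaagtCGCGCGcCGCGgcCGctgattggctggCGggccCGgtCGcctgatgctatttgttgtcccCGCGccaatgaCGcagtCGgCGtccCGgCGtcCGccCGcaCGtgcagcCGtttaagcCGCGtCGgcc
Dazl: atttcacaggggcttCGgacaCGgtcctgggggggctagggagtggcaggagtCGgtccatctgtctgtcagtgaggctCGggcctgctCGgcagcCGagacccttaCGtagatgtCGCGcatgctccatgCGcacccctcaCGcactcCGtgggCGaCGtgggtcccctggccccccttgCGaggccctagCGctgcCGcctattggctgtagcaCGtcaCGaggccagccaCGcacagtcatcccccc
Tdrkh: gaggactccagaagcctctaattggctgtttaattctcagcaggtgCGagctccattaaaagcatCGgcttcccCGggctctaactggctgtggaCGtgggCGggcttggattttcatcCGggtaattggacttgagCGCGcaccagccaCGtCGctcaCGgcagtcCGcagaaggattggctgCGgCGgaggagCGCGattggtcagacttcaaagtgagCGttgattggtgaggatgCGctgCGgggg
They come from chr13:112652311-112652560 and chr17:50293621-50293870, both on the minus strand, and chr3:94412994-94413243 on the plus strand, and hold 31, 20 and 19 CpG in the part printed. In the Ddx4 promoter the E-box begins at position -29 and the E2F-type motif at -136 relative to the start site.

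None of the 5 listed germline genes was called as differing between knockout and heterozygous organs. The main limma fit also did not call Tex15 itself, although its groups did not overlap and limma-voom did call it, as given above. A gene left uncalled by that fit may therefore still differ. Testing was limited to genes averaging 0.5 TPM or more, which admitted 2 of the 5, Sycp3 and Tdrkh, and left out Dazl, Ddx4 and Slc25a31. Of those 2 tested genes 0 were called at an adjusted p under 0.05 (limma), where 0.586% of all 20305 tested genes were (0.212% as higher in knockout), and 0 passed at an unadjusted p under 0.05, where 3.10% did. With the filter lowered to 0.1 TPM, an alternative added after the levels had been seen, all 5 were tested. Again 0 were called, against 0.414% of 25375 genes, and 0 passed at an unadjusted p under 0.05, against 3.5%. Limma-voom on the recovered reads also called 0 of the 5, with 0 at an unadjusted p under 0.05, where 0.455% of genes were called, 0.0519% as higher in knockout.

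The heterozygous and knockout ranges overlapped for all 5 genes, and the groups did not overlap in 2.01% of all listed genes (0.777% with knockout higher). Among genes past the filter of 0.1 TPM these shares were 1.86% and 0.729%. Mean TPM was higher in knockout libraries for 5 of the 5, a direction shared by 68.4% of all listed genes. After median-ratio scaling, which sets the typical gene equal between libraries, the count was 3 of 5, against 47.5% of listed genes, with Sycp3 and Tdrkh then lower in knockout. As deposited, the median tested gene was itself 0.19 log2 units higher in knockouts, and 0.19 lower among the 6 animals of the later number series, so fold changes below are given relative to it. In bulk tissue, fewer cells expressing a gene and less RNA per cell cannot be told apart.

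**Figure D2:**
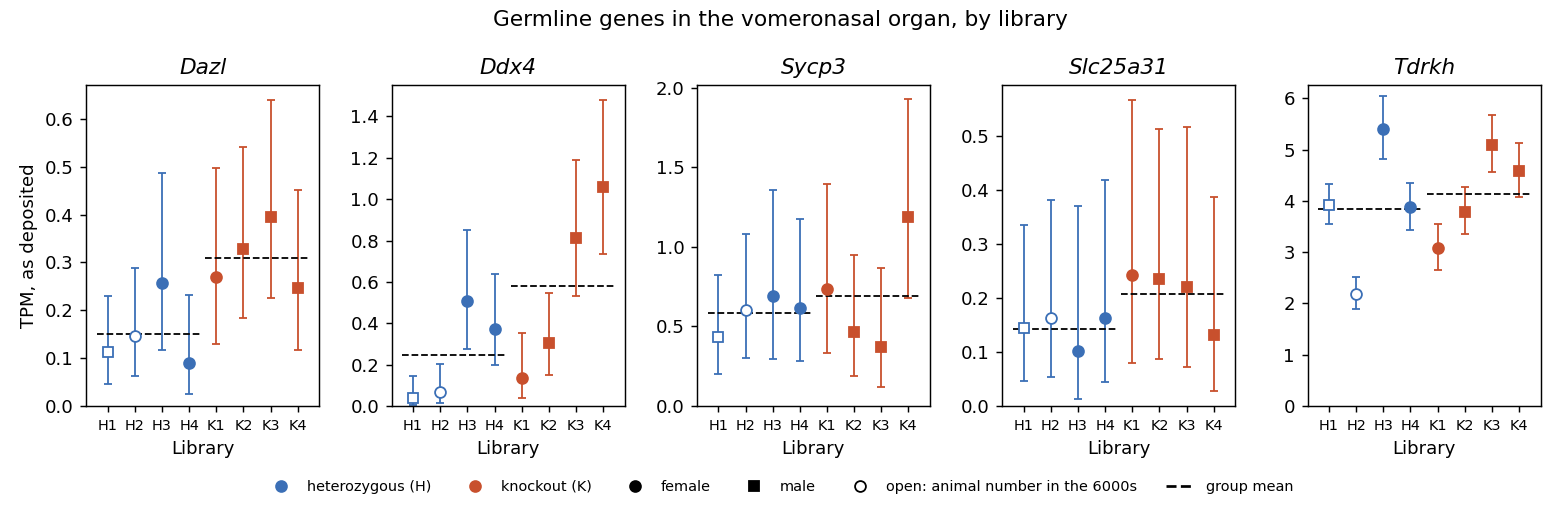
Each panel shows 1 gene, with TPM (vertical axis, from 0) for heterozygous libraries H1 to H4 and knockout libraries K1 to K4. Bars are exact Poisson 95% intervals of the recovered reads, dashed lines are group means, squares are males, and open symbols, keyed by animal number, are the 2 animals of the earlier number series. Group ranges overlap in every panel, and Dazl comes closest to a separation.

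Dazl and Ddx4, RNA-binding proteins of early germ cells, had the highest ratios of knockout to heterozygous mean TPM among the 5. Dazl (ENSMUSG00000010592, chromosome 17, 50279395 to 50293636 in GRCm38, minus strand) binds the tails of messenger RNAs and promotes their translation in germ cells. It was at 0.112, 0.146, 0.257 and 0.0909 TPM in heterozygous replicates 1 to 4 and at 0.270, 0.328, 0.394 and 0.246 TPM in knockout replicates 1 to 4. Of the 4 heterozygous libraries only replicate 3, at 0.257 TPM, stood above the lowest knockout library, at 0.246 TPM. The means were 0.151 ± 0.0738 and 0.310 ± 0.0661 TPM (SD, n = 4), a ratio of 2.05, or 1.86 after median-ratio scaling. The two-sided exact permutation test over the 70 assignments of libraries gave p = 0.0571, and adjusted over all 27532 genes 1. The smallest p this design allows is 0.0286. At the filter of 0.1 TPM the log2 fold change on the log2(TPM + 0.5) scale was 0.15 (95% interval −0.38 to 0.69, limma adjusted p = 0.9995).

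These Dazl levels rest on few reads. There were 7, 8, 9 and 4 reads in heterozygous and 10, 15, 16 and 10 in knockout libraries, 28 against 51 in all. Each library's exact Poisson interval was wide, 0.117 to 0.487 TPM for heterozygous replicate 3 and 0.118 to 0.452 TPM for knockout replicate 4. The order of this pair of libraries is therefore within counting error, which does not extend to every other pair. Such intervals cover counting error only. On recovered reads the log2 fold change was 0.89 (95% interval −0.22 to 2.00, limma-voom adjusted p = 0.9999), and the interval includes 0. Its width reflects the spread between animals as well as counting error, and the part of each was not tested. Knockout levels above the heterozygous ones of the same sex were seen in the 3 knockout males (0.246 to 0.394 TPM against 0.112 TPM in the heterozygous male). The 1 knockout female, at 0.270 TPM, stood above all 3 heterozygous females, at 0.0909 to 0.257 TPM. Among the 6 animals of the later number series the exact permutation p was 0.200, where the smallest possible is 0.0667. That test has no sex term, and all males of that series are knockouts.

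Ddx4 (ENSMUSG00000021758, chromosome 13, 112598333 to 112652475, minus strand), the germ cell RNA helicase also known as mouse vasa homolog, was at 0.0405, 0.0693, 0.506 and 0.374 TPM in heterozygous replicates 1 to 4. Knockout replicates 1 to 4 were at 0.137, 0.305, 0.812 and 1.06 TPM. The lowest levels were those of heterozygous replicates 1 and 2 and knockout replicate 1, and the highest those of knockout replicates 3 and 4, so single libraries differed more within a group than the group means did. The means were 0.248 ± 0.229 and 0.578 ± 0.430 TPM (SD, n = 4), a ratio of 2.33, or 2.29 after median-ratio scaling (exact permutation p = 0.257, adjusted 1). Reads ran from 2 to 14 in heterozygous and from 4 to 34 in knockout libraries. The intervals of heterozygous replicate 1 (0.00491 to 0.146 TPM) and heterozygous replicate 3 (0.277 to 0.849 TPM) did not meet, so the difference between these heterozygous animals exceeds counting error.

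The low heterozygous values of Ddx4 belonged to the 2 animals of the earlier number series. Within the later series, the heterozygous libraries at 0.374 and 0.506 TPM lay inside the knockout range, and the exact permutation p was 0.867. The log2 fold change was 0.23 over all 8 libraries (95% interval −0.55 to 1.02, limma adjusted p = 0.9995, filter 0.1 TPM), −0.24 without heterozygous replicate 1, and 0.72 without knockout replicate 1 (unadjusted p = 0.0286, adjusted 0.848). Limma-voom gave 1.13 with an interval of −0.87 to 3.12. Markers of multiciliated cells summed to 677 and 757 TPM in knockout replicates 3 and 4, where Ddx4 was highest. They summed to 683 TPM in heterozygous replicate 2, where Ddx4 was among the lowest. Single markers of that list differed in where they peaked. Rsph1 was highest in heterozygous replicate 2, at 325 TPM. Hydin was highest in knockout replicate 4, at 11.9 TPM, against 2.74 TPM in heterozygous replicate 2. The part of cell composition in the Ddx4 values was not tested.

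A ratio of at least 2 between the group means as deposited, which Dazl and Ddx4 reach and after scaling only Ddx4, was found in 5.96% of all listed genes. Among the 5070 genes with a mean from 0.1 up to 0.5 TPM, the range in which both lie, it was found in 15.3%, and a higher knockout mean of any size in 58.8%. Both genes lacked any overlapping gene in GENCODE M21.

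Sycp3 and Slc25a31, with roles in meiosis and sperm metabolism, did not separate the genotypes. Sycp3 (ENSMUSG00000020059, chromosome 10, 88459569 to 88473236, plus strand) encodes a structural protein of the synaptonemal complex, which holds homologous chromosomes together. It was at 0.435, 0.606, 0.690 and 0.618 TPM in heterozygous and at 0.736, 0.462, 0.372 and 1.19 TPM in knockout replicates 1 to 4. Knockout libraries included both the lowest and the highest value. The means were 0.587 ± 0.108 and 0.689 ± 0.366 TPM (SD, n = 4; exact permutation p = 0.743, adjusted 1), from 37 reads in each group. Its fold change lay at −0.00 log2 units (SE 0.40, 95% interval −0.83 to 0.82, limma adjusted p = 0.9995).

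The level of Sycp3 is uncertain. Of its exon bases, 52.2% overlap exons of Chpt1 on the opposite strand, a gene of phospholipid synthesis at 19.99 to 28.2 TPM. The libraries were made with a directional kit, but whether counting used strand is not given in the sources used here. The reads of this pair therefore cannot be told apart here.

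Slc25a31 (ENSMUSG00000069041, chromosome 3, 40708855 to 40726096, plus strand), the testis form of the mitochondrial ADP/ATP carrier, had the lowest mean TPM of the 5 in each group. Heterozygous replicates 1 to 4 were at 0.144, 0.164, 0.102 and 0.163 TPM and knockout replicates 1 to 4 at 0.243, 0.235, 0.221 and 0.132 TPM. Knockout replicates 1, 2 and 3 lay above every heterozygous library and knockout replicate 4 lay inside the heterozygous range. This order rests on 2 to 6 reads per library, 16 reads in heterozygous and 19 in knockout libraries. The means were 0.143 ± 0.0288 and 0.208 ± 0.0512 TPM (SD, n = 4; exact permutation p = 0.114, adjusted 1). The log2 fold change at the filter of 0.1 TPM was −0.01 (95% interval −0.51 to 0.49, limma adjusted p = 0.9995), and on recovered reads 0.32 (−1.001 to 1.65).

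Tdrkh (ENSMUSG00000041912, chromosome 3, 94413273 to 94434668, plus strand) encodes a mitochondrial Tudor protein that binds PIWI proteins and takes part in trimming piRNAs. It was the exception in level: 3.93, 2.19, 5.41 and 3.87 TPM in heterozygous and 3.08, 3.79, 5.09 and 4.58 TPM in knockout replicates 1 to 4, from 183 to 395 reads per library. The knockout range lay inside the heterozygous range. The gene was above 54.0% of all listed genes by mean TPM, whereas the other 4 were above 13.4% to 29.2%, so the data do not show Tdrkh as silent in this tissue. The means were 3.85 ± 1.32 and 4.14 ± 0.884 TPM (SD, n = 4; exact permutation p = 0.714, adjusted 1).

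For Tdrkh the fold change lay at −0.21 log2 units (SE 0.41, 95% interval −1.07 to 0.64, limma adjusted p = 0.9995). Without the sex term its fold change was −0.02 (SE 0.33). With many more reads than the other members, limma-voom gave it the narrowest interval of the 5, −0.77 to 0.27 around −0.25. Exons of Oaz3, a germ cell gene on the opposite strand, share 36.7% of the exon bases of Tdrkh, and Oaz3 stood at 0.0966 to 0.239 TPM. In order of mean level, Tdrkh stood clear of Sycp3, Ddx4, Dazl and Slc25a31, with its lowest library above the highest of each. The ranges of those 4 over all libraries overlapped one another, Sycp3 and Slc25a31 excepted.

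**Figure D3:**
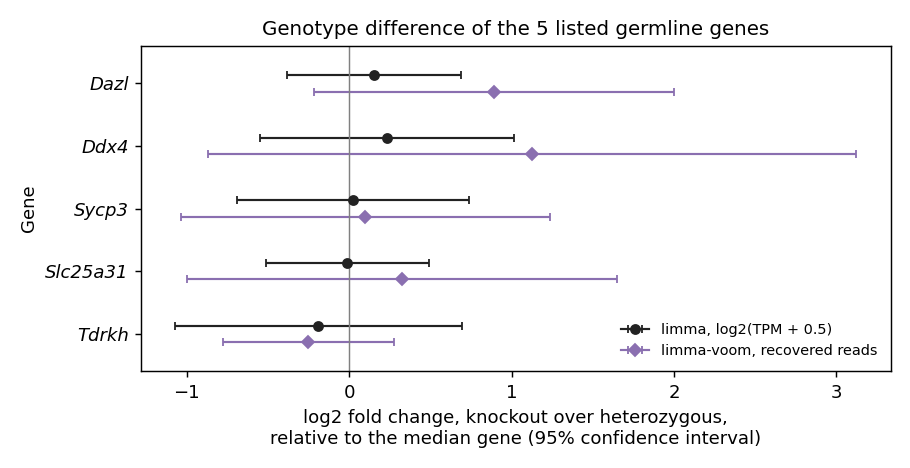
Points give the log2 fold change of knockout over heterozygous libraries relative to the median gene (horizontal axis) for each of the 5 listed genes, and bars its 95% confidence interval. Black circles are limma on log2(TPM + 0.5) with the filter at 0.1 TPM and violet diamonds limma-voom on recovered reads. All 10 intervals include 0, and the voom intervals of the genes with few reads are wider.

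The 5 genes together summed to 4.98 ± 1.56 TPM in heterozygotes and 5.92 ± 1.34 TPM in knockouts (SD, n = 4), most of it Tdrkh. Heterozygous sums ran from 3.17 to 6.97 TPM and knockout sums from 4.46 to 7.21 TPM. These sums describe the libraries and were not tested.

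Other meiosis and germ cell differentiation genes were likewise not called. Of 28 genes in the list 17 had a row and 6 passed the filter. Limma called 0 of the 6 in either direction, with 0 at an unadjusted p under 0.05, and 2 of the 6 lay above the median gene. Their median log2 fold change was −0.08, or 0.0167 after median-ratio scaling, against 0 for all tested genes by construction. Over the settings run it went from −0.39 at a filter of 1 TPM (3 genes) to 0.12 with a pseudocount of 0.1. Without the sex term it was −0.29. At the filter of 0.1 TPM 13 were tested with 0 called, 6 of them above the median gene. Limma-voom called 0 of these 13, with 2 at an unadjusted p under 0.05, where 3.86% of all genes were. Both had higher knockout values, and they are named after their values were seen: Stag3, a meiotic cohesin subunit, and Taf7l, a germ cell transcription factor subunit. Stag3 averaged 0.103 ± 0.0636 and 0.193 ± 0.0427 TPM (SD, n = 4), and limma-voom put it at 1.23 log2 units (adjusted p = 0.820). Taf7l averaged 0.230 ± 0.110 and 0.410 ± 0.122 TPM (SD, n = 4), at 1.035 log2 units (limma-voom adjusted p = 0.9999). Their group ranges overlapped.

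By fold change the 2 highest of the 6 were Zcwpw1, a histone reader of meiotic recombination, and Dmc1, the meiotic recombinase. Zcwpw1 averaged 0.568 ± 0.0889 TPM in heterozygotes and 0.907 ± 0.247 TPM in knockouts (SD, n = 4), or 0.25 log2 units above the median gene (SE 0.38). Dmc1 averaged 0.433 ± 0.195 and 0.585 ± 0.101 TPM, or 0.16 log2 units (SE 0.38). For both, the ranges overlapped and the limma adjusted p was 0.9995.

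The 2 lowest were Majin, which tethers telomeres to the nuclear envelope in meiosis, and Brdt, a testis bromodomain protein. Majin was at 1.34, 1.70, 1.33 and 1.43 TPM in heterozygous and at 0.881, 0.865, 0.803 and 1.09 TPM in knockout replicates 1 to 4. The groups did not overlap and knockout libraries were lower, which is 1 gene of the 6 where 1.40% of all tested genes had no overlap. This put Majin at −0.64 log2 units (SE 0.38, limma adjusted p = 0.9995), and the exact permutation p was 0.0286, the smallest possible, or 1 after adjustment over all listed genes. Brdt averaged 14.3 ± 4.57 and 12.7 ± 2.01 TPM (SD, n = 4), or −0.38 log2 units (SE 0.37, limma adjusted p = 0.9995). It stood above 76.9% of all listed genes by mean TPM, and its ranges of 9.32 to 20.4 and 10.7 to 15.4 TPM overlapped.

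Sycp1, the partner of Sycp3 in the synaptonemal complex, is named after its values were seen. It was at 0.0344, 0.980, 2.02 and 1.49 TPM in heterozygous and at 0.900, 0.610, 0.874 and 0.0792 TPM in knockout replicates 1 to 4. In each group 1 library, heterozygous replicate 1 and knockout replicate 4, lay far below the other 3. Both animals were male, but the knockout males of replicates 2 and 3 were not low. The means were 1.13 ± 0.846 and 0.616 ± 0.381 TPM (SD, n = 4), and the difference of mean log2(TPM + 0.5) was −0.42 (exact permutation p = 0.514, adjusted 1). Within the later number series it was −1.09 (exact permutation p = 0.133). Its fitted difference, adjusted for sex, was −0.01 log2 units (SE 0.45, limma adjusted p = 0.9995).

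The piRNA pathway partners, in which Tex15 and Tdrkh take part, were mostly at low levels. Of 20 genes 16 had a row and 6 passed the filter. Limma called 0 of the 6, with 0 at an unadjusted p under 0.05, and 1 of the 6 lay above the median gene, with a median log2 fold change of −0.11. In the later number series, fitted without the sex term, 3 of the 6 did, with a median of −0.0335. Over all libraries without the sex term 1 of the 6 did, with a median of −0.0461. At the filter of 0.1 TPM 0 of 13 were called. Tdrd1, a Tudor protein of germ granules, had the highest value at 0.09 (SE 0.47), with 0.819 ± 0.432 and 1.23 ± 0.864 TPM (SD, n = 4). Pld6, a mitochondrial nuclease of piRNA production, followed at −0.06 (SE 0.43). Morc1, a germline factor of transposon silencing, had the lowest at −0.42 (SE 0.47), with 2.79 ± 0.701 and 2.36 ± 1.48 TPM, and Tdrd5 was at −0.20 (SE 0.40). Limma adjusted p-values were 0.9995 or more for these 4 genes.

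Regulators of promoter methylation and silencing were listed throughout. The list joins factors that lay down or read repressive marks with the TET enzymes Tet1, Tet2 and Tet3, which act against methylation. All 23 had a row and passed the filter, from a mean of 0.784 TPM for the methyltransferase Dnmt3b to 57.4 TPM for Mbd2, and limma called 0 of the 23, with 0 at an unadjusted p under 0.05. Of the 23, 18 lay above the median gene, with a median log2 fold change of 0.14 and a range of −0.16 to 0.30. In the later number series, fitted without the sex term, 14 of the 23 did, with a median of 0.04. Over all libraries without the sex term 17 of the 23 did, with a median of 0.13. The maintenance methyltransferase Dnmt1 averaged 6.79 ± 3.20 TPM in heterozygotes and 8.85 ± 2.39 TPM in knockouts (SD, n = 4), or 0.25 log2 units (SE 0.42). Tet2, which oxidises methylated cytosine, had the highest value at 0.30 (SE 0.45), with 1.89 ± 1.07 and 2.87 ± 1.33 TPM. The lowest were E2f6, at −0.16 (SE 0.39) with 6.75 ± 1.96 and 6.46 ± 0.820 TPM, and the methyl-CpG binding protein Mbd2, at −0.06 (SE 0.36) with 56.9 ± 21.3 and 57.8 ± 8.52 TPM. Limma adjusted p-values were 0.9995 for these 4, and the ranges overlapped for all 23.

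**Figure D4:**
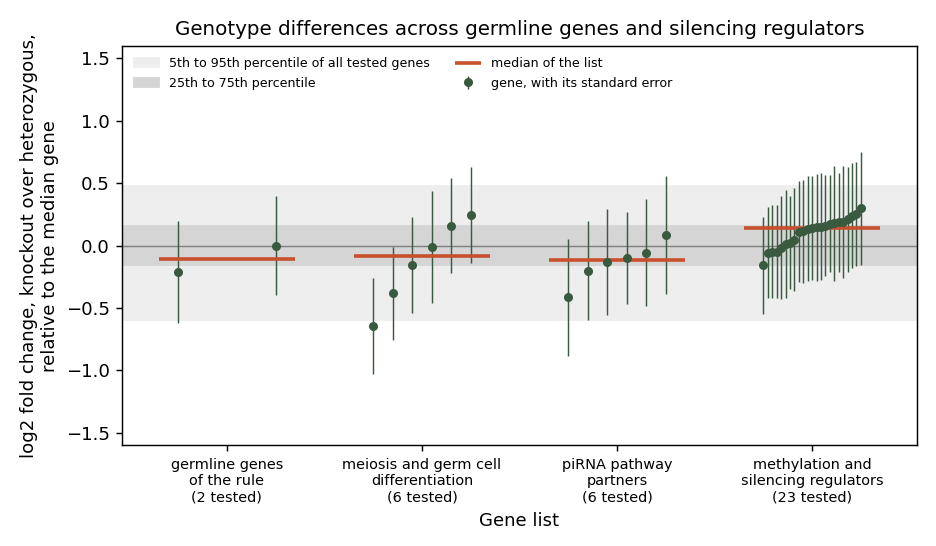
Points give the log2 fold change of knockout over heterozygous libraries relative to the median gene (vertical axis) for each tested gene of 4 lists (horizontal axis), with its standard error, and red lines the list medians. Grey bands mark the central ranges of all 20305 tested genes, from −0.15 to 0.15 for the inner band and from −0.59 to 0.47 for the outer one. All but 1 of the tested list genes, Majin at −0.64, lie inside the outer band.

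Of 10 markers of haploid germ cells 3 had a row, and nothing is read from the 7 without one. The protamine Prm1 averaged 0.272 ± 0.148 TPM in heterozygotes and 0.265 ± 0.347 TPM in knockouts (SD, n = 4). The transition protein Tnp2 was at 0.110, 0, 0.197 and 0 TPM in heterozygous replicates 1 to 4 and at 0.187, 0.151, 0.340 and 0.847 TPM in knockout replicates 1 to 4 (exact permutation p = 0.0857, adjusted 1). The knockout mean of Tnp2, 0.381 TPM, stood above its heterozygous mean of 0.0767 TPM with overlapping ranges. Odf2, which ciliated and other somatic cells also express, was at 11.2 to 27.8 TPM. Progenitor and immature neuron markers, a source of dividing cells, summed to 24.5 to 69.9 TPM in heterozygous and 41.8 to 66.4 TPM in knockout libraries, and 6 of 6 lay above the median gene with 0 called. Their median was 0.41 log2 units over all libraries, 0.30 when the sex term was left out, and 0.06 without knockout replicate 1. In the later number series it was 0.19. All later-series values in this paragraph come from fits without the sex term. Erythroid markers had a median of 0.40 with 3 of 3 above the median gene, 1.27 in the later series and −0.44 without knockout replicate 1. Leaving out the sex term alone over all libraries gave a median of 0.15. Main olfactory neuron markers had a median of −0.74 with 0 of 4 above the median gene, and −0.31 in the later series. Supporting cell markers had a median of −1.01 with 0 of 2 above it, −0.40 without heterozygous replicate 2, which stood highest, and 0.26 in the later series. Vomeronasal neuron markers had a median of 0.06 with 2 of 3 above it, and −0.21 in the later series. The fit with genotype and sex over all libraries called 0 genes of these lists, and over the settings run only Omp was called in any, in the 3 given above. Multiciliated cell markers summed to 396 to 683 and 282 to 757 TPM, with a median of −0.02 log2 units and 3 of 8 above the median gene, and 0.26 with 8 of 8 in the later series. Immune cell markers summed to 1740 to 3929 and 1753 to 5023 TPM, with a median of 0.03 and 3 of 6 above the median gene, and −0.29 with 2 of 6 in the later series. The part of these cells in the germline values was not tested.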

How the data were processed

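Strand-specific poly(A) libraries of 8 vomeronasal organs, 4 Tex15Het and 4 Tex15KO, were sequenced as paired reads, per the labels' protocols. The authors deposited 1 table of TPM values with 1 column per library, and replicates were not pooled. The submitters' processing notes name Trim Galore 0.6.5, cutadapt 5.1, STAR 2.7.11b and the build GRCm38 (mm10). The counting program, its use of strand and the filter on listed genes are not given in the sources used here. Every column matched a sample title.

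Reads were recovered from the steps between low TPM values with exon lengths of GENCODE M21. Between 98.1% and 98.5% of values worth up to 20 reads came within 0.1 of a whole read, and reads were recovered for 26729 genes. 

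Limma 3.58.1 (R 4.3.3; lmFit and trended eBayes) was fitted to log2(TPM + 0.5) of genes averaging 0.5 TPM or more, with terms for genotype and sex. Benjamini-Hochberg adjustment covered all tested genes, at a threshold of 0.05. Fold changes and their intervals are printed after subtracting the median gene, whereas limma p-values test the difference before that shift. The pseudocount makes them understate differences of low genes. Every listed gene was also tested by an exact permutation test, which had no term for sex. The p-values measure the spread between these animals. On simulated reads, unadjusted p-values were calibrated and most changed genes were recovered, but the share of false calls after adjustment exceeded the nominal level in most draws and the limit first set for it. That limit was then dropped, with all draws kept, so counts of called genes over the whole table are to be read as liberal.

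The genes of the set and the lists were chosen with earlier results of these data known. Named from the other lists were called genes (none were found) or else the 2 highest and 2 lowest tested fold changes. Alternatives were other pseudocounts, filters and scalings, robust variances, and designs without sex or with a replicate block. Further alternatives were the 6 animals of the later number series without the sex term, leaving out each library, and limma-voom on recovered reads. For Dazl, Ddx4 and Slc25a31 they were run at a filter of 0.1 TPM, added after the data had been seen. Depth ran from 17884091 to 26415660 reads.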

Additional observations from a re-analysis of the deposited data

Results flagged for a closer look

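Of 218 sets of 4 values (each gene of the lists, Tex15 and each list's sum, in each group), 8 had 1 library set apart from the other 3 by a gap, relative to the group's range, above Dixon's 95% critical value. Chance flags about 1 in 20 such sets, so 8 is fewer than chance alone would give, and none was a listed germline gene of the rule. In heterozygous replicate 2 the supporting cell genes Cyp2g1 and Cyp2a5 stood apart at 757.9 and 3055 TPM, and so did the sum of that marker list at 3813 TPM, against 651 to 1025 TPM in the other heterozygous libraries. That library had 0.146 TPM of Dazl and 0.0693 TPM of Ddx4. In heterozygous replicate 3 the meiotic cohesin Smc1b stood apart at 0.350 TPM, Nxf2 at 0.170 TPM and Dnmt3l at 0.0729 TPM. In knockout replicate 3 Dmc1 stood apart at 0.734 TPM, and in knockout replicate 4 Tdrd9 at 0.173 TPM.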

How the results depend on the processing

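The counts of called genes were 0 for the germline genes of the rule and for the meiosis, piRNA and silencing regulator lists in all 20 alternatives run for each. Over all genes the count of 119, of which 43 were higher and 76 lower in knockout, was 155 after median-ratio scaling, with 28 higher and 127 lower, and became 72 with no filter and 184 in the 6 animals of the later number series without the sex term. Leaving out 1 library gave 83 to 254 genes, with 69 higher and 42 lower without knockout replicate 1, the reverse balance, and 202 without heterozygous replicate 2, 254 without heterozygous replicate 4 and 190 without knockout replicate 4; the cause was not tested. Library numbers did not pair the samples: deviations of same-numbered libraries correlated at -0.061, 0.027, 0.097 and 0, and 2 of 8 libraries correlated best with their own number. With the replicate block 128 genes were called, or 130 without the sex term.

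No member was called in any of the settings run for it, 18 to 21 each, with limma adjusted p-values from 0.786 to 1. Signs near 0 did change. Sycp3 went to 0.0672 with a pseudocount of 0.1, 0.0219 with the filter at 0.1 TPM, 0.0421 with no filter, 0.0745 after median-ratio scaling, 0.19 in the later series and 0.10 with limma-voom. Tdrkh went to 0.0378 in the later series. All later-series fits also left out the sex term, and leaving it out alone over all libraries took Tdrkh from -0.2126 to -0.0237. Slc25a31 went to 0.18 with a pseudocount of 0.1, 0.11 after median-ratio scaling, 0.005 without the sex term, with or without the replicate block, 0.33 in the later series and 0.32 with limma-voom. Leaving out 1 library gave -0.20 to 0.19 for Sycp3, -0.30 to -0.13 for Tdrkh, -0.30 to 0.29 for Slc25a31, -0.24 to 0.72 for Ddx4 and 0.02 to 0.30 for Dazl. Dazl stayed above the median gene in all 18 settings, none of them past the threshold. The difference tested by permutation went to -0.027 for Sycp3 and -0.0373 for Tdrkh after median-ratio scaling, and to -0.0037 and -0.15 in the later series. The cause of these shifts was not tested. Ddx4 had an unadjusted p of 0.0474 with the replicate block and no sex term (limma adjusted p = 0.866). For Dazl, Ddx4, Sycp3 and Slc25a31, counting error is wide, with 35 to 107 reads over all libraries.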
